A study of Bos taurus with 10 samples.

Results

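The genes described here are 5 genes of the circadian clock, PER2, HLF, CRY1, NFIL3 and NR1D1, in the right ventricle of newborn calves. They were read by 8 of the 24016 probe sets tested, and they are 5 of the 9155 genes named on the array. A probe set is the group of short probes that reads 1 transcript on the Affymetrix Bovine GeneChip. PER2, HLF and NFIL3 had 2 probe sets each, CRY1 and NR1D1 had 1 each, and every probe set with 1 of these symbols is shown. The genes were chosen by their expression in the comparison of hypoxia with control calves in these same arrays, so their differences between the groups are given as a description. Adjusted p-values of their probe sets enter only a count, from which nothing is read. The hypoxia group was 5 male Holstein calves, titled PH calf in the labels, kept under hypobaric hypoxia for 14 days at an equivalent altitude of 4570 m. The control group was 5 male Holstein calves, age-matched, kept for the same 14 days at the ambient pressure of 1525 m, so the controls were themselves at moderate altitude. Exposure began at postnatal days 3 to 7, and each array holds the ventricle of a separate calf. The labels give no time of day for the collection of the tissue.

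The circadian clock is a feedback loop of transcription that runs in nearly every mammalian cell, heart muscle included. The factors CLOCK and BMAL1 switch on the period and cryptochrome genes, whose proteins PER and CRY return to the nucleus and shut CLOCK and BMAL1 down. NR1D1 (REV-ERB alpha) is a nuclear receptor that represses the BMAL1 gene, and HLF and NFIL3 bind the same DNA element, the D box, where HLF activates and NFIL3 represses. In the heart the loop sets daily rhythms of metabolism and of ion channel expression.

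Values were log2 expression, the tissue carried markers of heart muscle, and the arrays were alike in level. Array medians lay between 5.48 and 5.54. The mean of 9 cardiomyocyte markers was 13.72 to 13.92 in hypoxia calves, against 13.71 to 13.81 in control calves, and 0 of the 9 passed an adjusted p of 0.05 in the fit with limma across all probe sets, a linear model that shares variance between probe sets. The mean of 5 measured proliferation markers was 5.00 to 6.65 in hypoxia calves, against 3.97 to 4.26 in control calves, and 4 of them rose. The mean of 9 lymphocyte markers was 3.94 to 4.43 in hypoxia calves, against 4.43 to 4.87 in control calves, and 0 of them passed. The macrophage mean overlapped, with 7.59 to 8.68 in hypoxia calves and 7.18 to 8.28 in control calves. The mean of 3 measured atrial markers, 0 of which passed, was 7.28, 7.18, 7.61, 9.15 and 7.47 in hypoxia calves 173, 178, 192, 199 and 204, against 7.15, 6.69, 7.21, 5.80 and 6.81 in control calves 176, 177, 180, 181 and 195. Calf 199 was the highest and calf 181 the lowest, and both stand at the ends of several genes below. Of 8 fibroblast markers 1, PDGFRA, fell, with 7.61 ± 0.24 in hypoxia and 8.50 ± 0.33 in control (limma, adjusted p = 0.0213), while the mean of the list overlapped between the groups. The part of these cell types in the values below was not tested, and in whole tissue fewer cells of a type and less RNA per cell cannot be told apart.

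PER2, HLF and CRY1 were lower in every hypoxia calf than in every control calf, by 2.49-fold, 1.84-fold and 1.34-fold on their brighter or only probe set. NFIL3 and NR1D1 were 1.26-fold and 1.15-fold higher on average, with groups that overlapped. Of the 8 probe sets, 3 had an adjusted p under 0.05 in limma with Benjamini-Hochberg adjustment, all 3 lower in hypoxia. They were the dimmer probe set of PER2 and both of HLF, while the brighter probe set of PER2 did not pass. By the brightest probe set 1 of the 5 genes passed, HLF, against 3.66% of all named genes. Over the whole array 2.71% of probe sets passed, 1.65% higher and 1.07% lower. In 5 of the 8 probe sets the groups did not overlap, with hypoxia below control, against 2.75% of all probe sets that lay apart in that direction and 5.46% in either. Since this contrast chose the genes, nothing is read from these counts.

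PER2, a repressor of the loop whose transcript has a strong daily rhythm in mammals, had the largest difference of the 5. On its brighter probe set it was 7.21, 5.50, 7.77, 7.29 and 6.94 in hypoxia calves 173, 178, 192, 199 and 204, against 7.90, 8.58, 7.95, 9.07 and 7.79 in control calves 176, 177, 180, 181 and 195. Hypoxia calf 178 was far below the rest, control calf 181 was the highest, and the groups were parted by only 0.02 between hypoxia calf 192 and control calf 195. The means were 6.94 ± 0.86 in hypoxia and 8.26 ± 0.55 in control (SD, n = 5 each), a difference of -1.32 ± 0.39 (SE). The dimmer probe set read 5.67, 4.33, 6.04, 5.53 and 5.26 in the same hypoxia calves, against 6.38, 7.06, 6.45, 7.60 and 6.33 in the control calves. It set the control calves in the same order as the brighter probe set, had the same hypoxia calf, 178, at the bottom and the same one, 192, at the top, and parted the groups by a wider 0.29. Its means were 5.37 ± 0.64 in hypoxia and 6.76 ± 0.55 in control (SD, n = 5 each), a difference of -1.40 ± 0.32 (SE). Without hypoxia calf 178 the difference was -0.96 ± 0.27 on the brighter probe set and -1.14 ± 0.27 on the dimmer.

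The PER2 difference was uneven between runs of calf numbers. The labels name no batch, but the numbers fall into a lower run of 2 hypoxia and 4 control calves (173 to 181) and an upper run of 3 hypoxia calves and 1 control calf (192 to 204). In the lower run the brighter probe set averaged 6.35 in hypoxia and 8.38 in control, a difference of -2.03. That hypoxia mean rests on calf 173, at 7.21, and calf 178, at 5.50, the lowest of all calves. In the upper run the brighter probe set averaged 7.33 in hypoxia and was 7.79 in the lone control calf, a difference of -0.46. In a fit with the run as a block, the PER2 difference was as large as without it, -1.46 ± 0.43 on the brighter probe set and -1.46 ± 0.37 on the dimmer. HLF differed by -0.63 in the lower run and -1.05 in the upper run on its brighter probe set, and by -0.78 ± 0.23 with the block. CRY1 differed by -0.53 in the lower run and -0.22 in the upper run, and by -0.42 ± 0.15 with the block. NFIL3 differed by 0.11 and 0.14 in the lower and upper runs on its brighter probe set, by 0.14 and -0.01 on its dimmer one, and by 0.12 ± 0.26 and 0.08 ± 0.25 with the block. NR1D1 differed by 0.03 in the lower run and 0.28 in the upper run, and by 0.12 ± 0.17 with the block. The upper run holds a lone control calf, so whether the runs differ was not tested.

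CRY1, the cryptochrome that acts with the PER proteins to repress CLOCK and BMAL1, differed in the same direction as PER2 and by less. It was 7.51, 6.89, 7.25, 7.21 and 7.46 in hypoxia calves 173, 178, 192, 199 and 204, against 7.60, 7.93, 7.54, 7.84 and 7.52 in control calves 176, 177, 180, 181 and 195. Calf 178 was again the lowest of the hypoxia calves and calves 177 and 181 again the highest of the controls, and the groups were parted by 0.01. The means were 7.26 ± 0.24 in hypoxia and 7.69 ± 0.18 in control (SD, n = 5 each), a difference of -0.42 ± 0.13 (SE). Without hypoxia calves 178 and 199 together it was -0.28 ± 0.13.

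HLF, the D box activator of the PAR bZIP family, was lower in hypoxia on both probe sets, and another calf was the lowest. The brighter probe set read 9.00, 8.49, 8.79, 7.79 and 8.45 in hypoxia calves 173, 178, 192, 199 and 204, against 9.35, 9.74, 9.42, 9.01 and 9.39 in control calves 176, 177, 180, 181 and 195. Calf 199 was the lowest of all calves, and hypoxia calf 173 lay 0.01 under control calf 181. The means were 8.50 ± 0.46 in hypoxia and 9.38 ± 0.26 in control (SD, n = 5 each), a difference of -0.88 ± 0.21 (SE). The dimmer probe set read 7.52, 6.93, 7.38, 6.43 and 7.13 in the hypoxia calves, against 8.09, 8.11, 8.00, 7.75 and 8.23 in the control calves. It parted the groups by 0.23, with calf 199 the lowest again, and its difference was -0.96 ± 0.19, from means of 7.08 ± 0.43 in hypoxia and 8.04 ± 0.18 in control. Without hypoxia calf 199 the differences were -0.70 ± 0.16 and -0.80 ± 0.14. Control calf 181, the highest control for PER2, was the lowest control for HLF on both probe sets.

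NFIL3, the D box repressor also known as E4BP4, did not part the groups. Its brighter probe set read 8.69, 8.35, 8.65, 9.49 and 9.03 in hypoxia calves 173, 178, 192, 199 and 204, against 9.03, 8.57, 7.72, 8.31 and 8.91 in control calves 176, 177, 180, 181 and 195. Calf 199, the lowest for HLF, was the highest of all calves for NFIL3, and control calf 180 was the lowest. The means were 8.84 ± 0.44 in hypoxia and 8.51 ± 0.52 in control (SD, n = 5 each), a difference of 0.33 ± 0.26 (SE), smaller than the SD of either group. The dimmer probe set had a difference of 0.33 ± 0.27, from 6.40 ± 0.40 in hypoxia and 6.07 ± 0.59 in control. The brighter probe set differed by 0.17 ± 0.25 without hypoxia calf 199 and by 0.14 ± 0.23 without control calf 180.

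NR1D1, the REV-ERB alpha repressor, was nearly level between the groups. It was 7.04, 6.79, 7.17, 7.48 and 7.01 in hypoxia calves 173, 178, 192, 199 and 204, against 7.38, 6.74, 6.83, 6.58 and 6.94 in control calves 176, 177, 180, 181 and 195. Hypoxia calf 199 and control calf 176 were the highest, as they were in their groups for NFIL3. The means were 7.10 ± 0.25 in hypoxia and 6.90 ± 0.30 in control (SD, n = 5 each), a difference of 0.20 ± 0.16 (SE). It was 0.11 ± 0.16 without hypoxia calf 199, 0.13 ± 0.16 without control calf 181 and 0.33 ± 0.14 without control calf 176. NR1D1 and the thyroid hormone receptor gene THRA overlap in the gene table of cattle assembly ARS-UCD2.0, and in mammals they lie on opposite strands. Their probe sets carry names with the same stem. THRA went the other way, with 11.12, 10.56, 10.97, 10.47 and 10.82 in the hypoxia calves, against 11.42, 11.45, 11.41, 11.53 and 11.86 in the control calves. It fell by 0.74 ± 0.14 (limma, adjusted p = 0.0209), and every hypoxia calf lay under every control calf. THRA did not pass without control calf 181 (limma, adjusted p = 0.0564) or without hypoxia calves 178 and 199 together (adjusted p = 0.0961). Whether either probe set also reads the other gene was not tested.

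**Figure D1:**
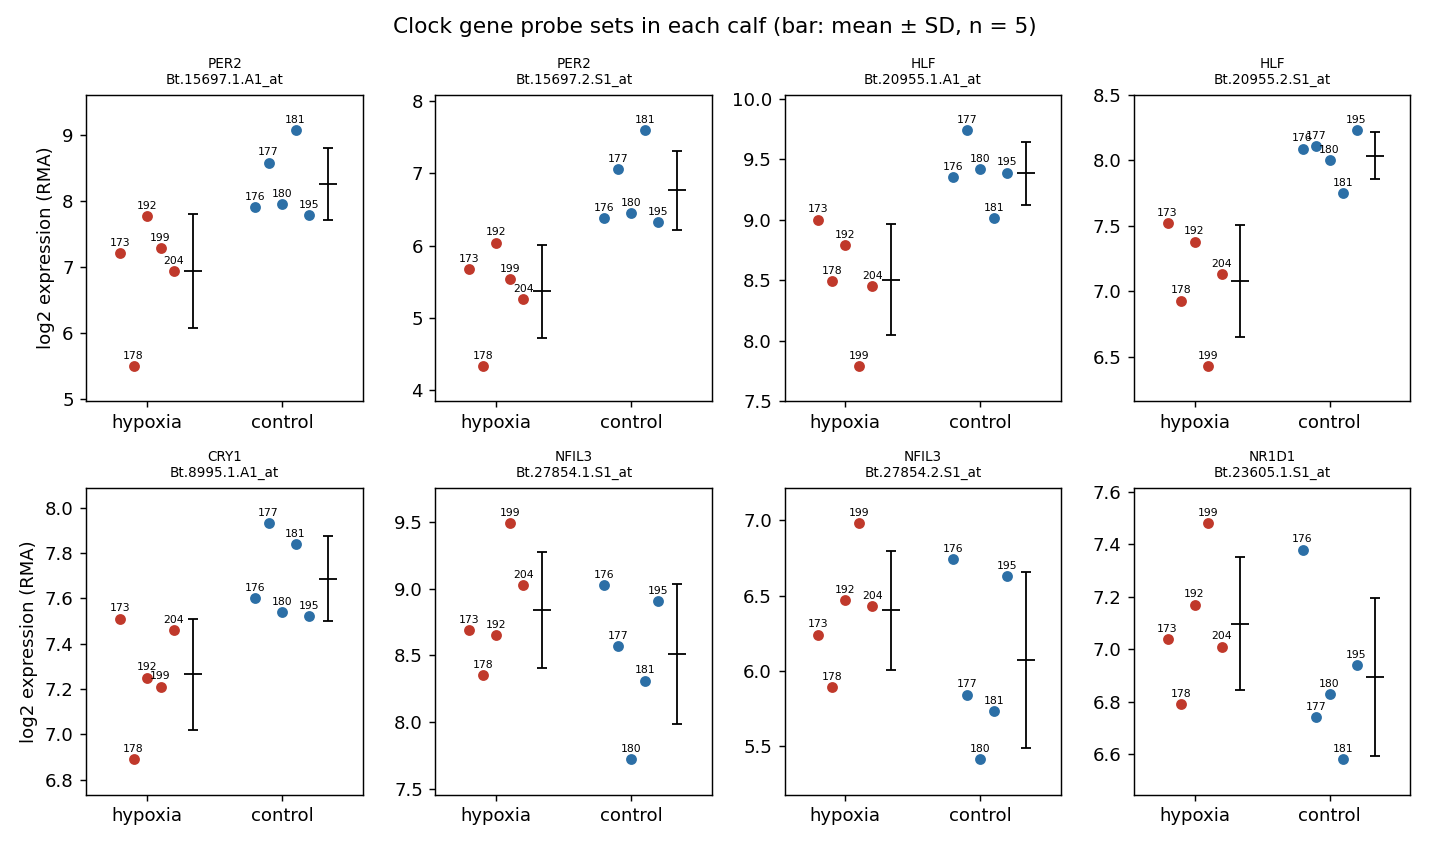
Log2 expression of the 8 probe sets of PER2, HLF, CRY1, NFIL3 and NR1D1 (vertical axes, each with its own range) in 5 hypoxia calves (red, left) and 5 control calves (blue, right), with calf numbers beside the points and bars for mean ± SD. The groups lie apart for PER2, HLF and CRY1, by as little as 0.01 to 0.02 on the brighter or only probe set, and overlap for NFIL3 and NR1D1.

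The paired probe sets of a gene gave nearly the same account of the calves. With each value taken as its deviation from the group mean, Pearson's r between the probe sets over the 10 calves was 0.98 for PER2, 0.92 for HLF and 0.93 for NFIL3. Both probe sets of a gene were read from the same RNA on the same array, so this describes the reading and not a second measurement of the calf.

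Calves of the same group differed widely in PER2 and NFIL3, while the spread of CRY1 was ordinary for its level. The pooled SD within groups was 0.72 for the brighter PER2 probe set, above that of 98.6% of the 1000 probe sets closest to it in mean level, whose median SD was 0.24. Without hypoxia calf 178 it was 0.47, above 93.7% of the same probe sets. It was 0.60 for the dimmer PER2 probe set, above 94.8% of its neighbours in level, and 0.47 without calf 178, above 86.9%. The NFIL3 probe sets had SDs of 0.48 and 0.50, above 92.9% and 90.0% of their neighbours. HLF had SDs of 0.37 and 0.33, above 86.3% and 77.6%. NR1D1 stood at 0.28, above 60.8%, and CRY1 at 0.22, above 40.9%, in the middle of the range. These spreads do not depend on the difference between the groups.

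**Figure D2:**
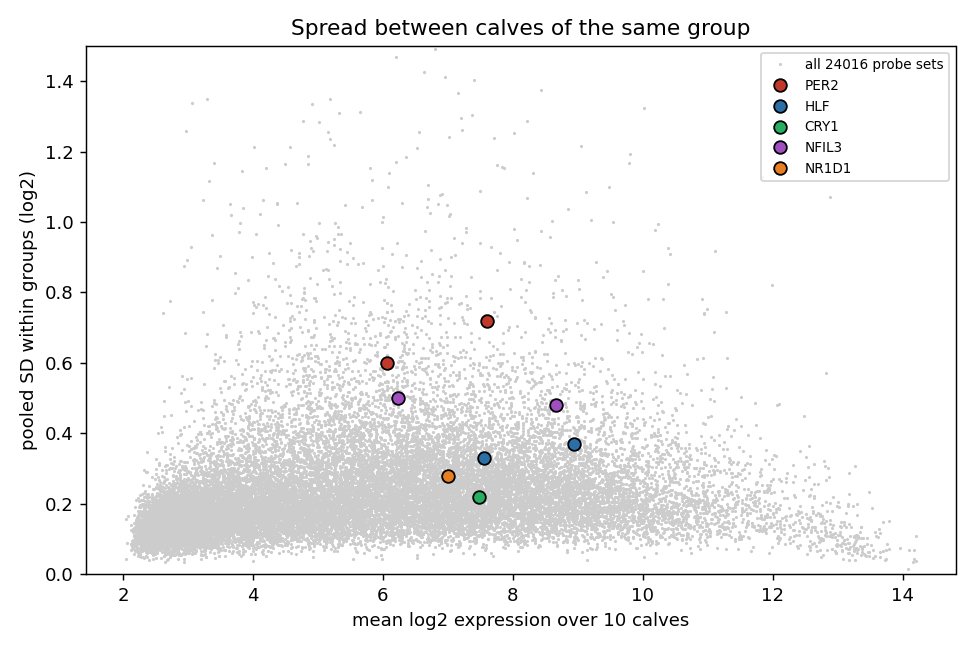
Pooled SD within groups (vertical axis, log2) against mean log2 expression over 10 calves (horizontal axis) for all 24016 probe sets in grey, with the probe sets of the 5 clock genes in colour. The 21 probe sets above an SD of 1.5 lie off the plot. PER2, at 0.60 and 0.72, sits near the upper edge of the cloud, and CRY1, at 0.22, in its middle.

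Within the groups, PER2 varied most closely with CRY1, and NFIL3 with NR1D1, but no pair passed after adjustment over the 10 pairs computed. These correlations used deviations from the group means, so the difference between the groups does not enter, and an exact two-sided permutation of the calves within each group. For PER2 and CRY1 Pearson's r was 0.74 (exact permutation p = 0.0302, adjusted p = 0.206) and Spearman's rho 0.64 (exact permutation p = 0.067, adjusted p = 0.336). Taken alone, r was 0.68 in hypoxia calves and 0.88 in control calves, 5 calves each. Without calves 178 and 192, the farthest from the PER2 median, r was 0.66 over 8 calves (exact permutation p = 0.115). With the probe sets of a gene averaged it was 0.75, and a lower 0.33 without calves 178 and 181, then the farthest from the median (exact permutation p = 0.431). Leaving out the farthest calves narrows the range of PER2, so the remaining 8 calves cannot show whether a relation is absent. For NFIL3 and NR1D1 r was 0.70 (exact permutation p = 0.0412, adjusted p = 0.206) and rho 0.65 (exact permutation p = 0.0672, adjusted p = 0.336). It was 0.86 in hypoxia calves and 0.60 in control calves, and 0.78 without calves 180 and 199 (exact permutation p = 0.0434, adjusted p = 0.434). With probe sets averaged it was 0.78, and 0.51 without calves 199 and 176 (exact permutation p = 0.238).

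The other 8 pairs gave r between -0.38 and 0.27. PER2 and HLF, both lower in hypoxia, had r = -0.02 within the groups (exact permutation p = 0.949). For HLF and NFIL3, the opposed D box factors, r was -0.38 (exact permutation p = 0.292), with -0.75 in hypoxia calves and 0.11 in control calves, and 0.06 without calves 199 and 173. For PER2 and NR1D1 r was 0.72 in hypoxia calves and -0.72 in control calves, and 0.09 over both (exact permutation p = 0.801). The difference between those signs was not tested.

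**Figure D3:**
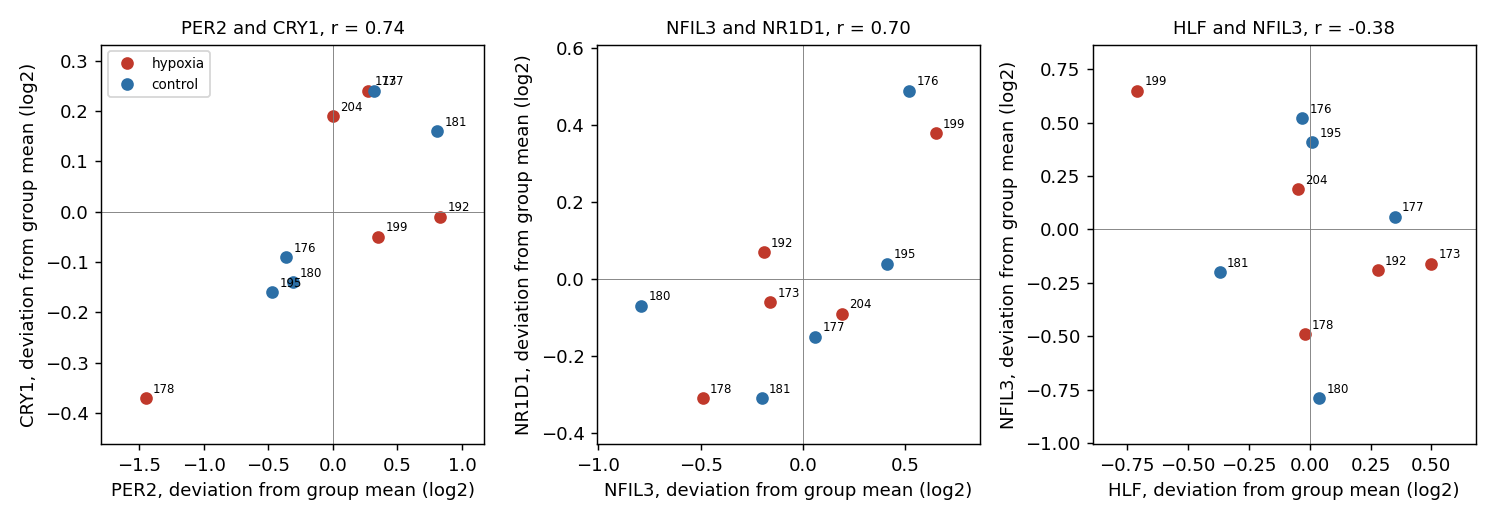
Deviations from the group mean (log2) of PER2 against CRY1, NFIL3 against NR1D1 and HLF against NFIL3 in 5 hypoxia calves (red) and 5 control calves (blue), with calf numbers. The first pair has r = 0.74 with calf 178 at its lower end, the second r = 0.70 with calves 176 and 199 at its upper end, and the third r = -0.38 with calf 199 in the upper left corner.

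The genes most like each clock gene over the 10 calves were listed by Pearson's r among 9154 other named genes, as a description in which the difference between the groups takes part. For PER2 they were KIF22 (r = 0.968), MYOC (0.943) and CYP2D14 (0.926). For CRY1 they were TSPAN7 (0.970), SOD3 (0.950) and ALDH2 (0.941), and for HLF they were NNT (0.946), MACROH2A1 (0.935) and SUCLA2 (0.935). For NFIL3 they were MYL4 (0.935), TFG (0.919) and CDC34 (0.914), and for NR1D1 RABAC1 (0.928), NTMT1 (0.927) and MPC2 (0.908). No other clock gene was among them. MACROH2A1, a variant histone, was the only one of the 15 to pass, with a fall of 0.44 ± 0.10 (limma, adjusted p = 0.0437), while KIF22, a chromosome-binding kinesin, differed by -0.67 ± 0.16 (adjusted p = 0.0509). MYL4, the atrial light chain of myosin and 1 of the atrial markers above, differed by 0.62 ± 0.41 (adjusted p = 0.487).

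With the difference between the groups taken out, part of these lists stayed. On deviations from the group means, KIF22 (r = 0.945) and MYOC (0.911) were again among the 3 most like PER2, with CTU1 (0.946) first. SOD3 (0.941) and TSPAN7 (0.935) were again among those of CRY1, behind RUNDC3A (0.954), and TFG (0.935) was again among those of NFIL3, with GNPTAB (0.939) and GNB2 (0.929). For HLF the genes were all different, POLD1 (0.980), ATP5IF1 (0.929) and PYGB (0.883), and so they were for NR1D1, with UFD1 (0.963), HDDC2 (0.945) and PDE1A (0.943). Of the genes in these centred lists only GNPTAB passed between the groups, with a rise of 0.83 ± 0.16 (limma, adjusted p = 0.0214). UFD1 differed by -0.45 ± 0.11 (adjusted p = 0.0506).

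The rest of the clock was tested, as far as it is named on the array. No probe set carries the symbol of CLOCK, NPAS2, BMAL1 (ARNTL), PER1, PER3, CRY2, NR1D2, DBP or TEF in the annotation used, and these were not analysed here. Of 25 other genes of the loop, its protein turnover and its coregulators, 0 rose and 1 fell by the brightest probe set (limma, Benjamini-Hochberg over all probe sets), against 3.66% of all named genes. At an unadjusted p under 0.05 there were 7 of the 25, 3 higher and 4 lower, against 22.4% of all named genes. Their median difference was 0.00, and that of all named genes -0.01.

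The gene that fell was SIRT1, a deacetylase that acts on clock proteins. It was 8.09, 7.82, 8.13, 8.06 and 8.06 in hypoxia calves 173, 178, 192, 199 and 204, against 8.21, 8.58, 8.66, 8.56 and 8.46 in control calves 176, 177, 180, 181 and 195. Every hypoxia calf lay under every control calf, and SIRT1 fell by 0.46 ± 0.10 (limma, adjusted p = 0.0394). Its dimmer probe set differed by -0.16 ± 0.12 (adjusted p = 0.55). With single calves left out the difference was -0.53 to -0.41, and SIRT1 passed only without control calf 176 (limma, adjusted p = 0.0231), with an adjusted p of 0.0587 to 0.0961 in the other 9 fits. With the run of calf numbers as a block it was -0.49 ± 0.12 (adjusted p = 0.0772).

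Among the 4 measured genes closest to the loop, 0 passed in either direction and 0 had an unadjusted p under 0.05 (limma). Over all named genes the shares were 3.66% and 22.4%, so with 4 genes neither a response nor its absence is read from these counts. BHLHE40, a repressor of CLOCK and BMAL1 that is also a known target of hypoxia-inducible factors, had the largest difference and the largest spread. It was 8.68, 8.16, 8.43, 10.10 and 8.34 in the hypoxia calves, against 8.47, 7.57, 8.25, 6.15 and 8.31 in the control calves, with calf 199 high and calf 181 low. Its difference was 0.99 ± 0.46 (limma, adjusted p = 0.297; 95% interval -0.02 to 2.01), from 8.74 ± 0.78 in hypoxia and 7.75 ± 0.96 in control. It was 0.65 ± 0.41 without hypoxia calf 199 and 0.59 ± 0.36 without control calf 181. The dimmer BHLHE40 probe set differed by 0.36 ± 0.40 (adjusted p = 0.704). CIPC, an inhibitor of CLOCK, differed by 0.31 ± 0.21 (adjusted p = 0.498), and TIMELESS, a partner of the PER and CRY proteins, by -0.24 ± 0.16 (adjusted p = 0.477). CIPC differed by 0.05 ± 0.13 with the run of calf numbers as a block and by 0.17 ± 0.20 without hypoxia calf 192. TIMELESS differed by -0.13 ± 0.14 without hypoxia calf 178 and by -0.16 ± 0.15 without control calf 180. Its dimmer probe set differed by 0.01 ± 0.13. RORA, the nuclear receptor that activates BMAL1 where NR1D1 represses it, differed by 0.34 ± 0.22 (adjusted p = 0.484), with 5.32 in calf 199 and between 3.96 and 4.45 in the 4 remaining hypoxia calves, against 3.84 to 4.21 in the control calves. Without calf 199 it differed by 0.11 ± 0.13, and its dimmer probe sets differed by 0.12 ± 0.12 and 0.01 ± 0.10. RORA was dim even on its brightest probe set, with a mean level of 4.22, against a median of 5.52 over all probe sets.

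The kinases and ligases that set the life of PER and CRY proteins gave 0 calls among 12 measured genes (limma), with 5 at an unadjusted p under 0.05, 3 higher and 2 lower. Over all named genes the shares were 3.66% and 22.4%, and no response of the list is read from these counts. CSNK1D and CSNK1E, the casein kinases that mark PER proteins for degradation, differed by -0.41 ± 0.14 (adjusted p = 0.137) and 0.31 ± 0.12 (adjusted p = 0.19). The dimmer probe sets of CSNK1D differed by -0.22 ± 0.18, 0.10 ± 0.16 and -0.05 ± 0.11. CSNK1E was read by a dim probe set, with a mean level of 4.30. GSK3B, a kinase of several clock proteins, differed by 0.73 ± 0.25 (adjusted p = 0.147). Its dimmer probe sets differed by 0.80 ± 0.24 and 0.04 ± 0.10. PRKAA1 and PRKAA2, the catalytic subunits of AMP-activated kinase, which acts on CRY1, differed by 0.55 ± 0.15 (adjusted p = 0.0716) and -0.78 ± 0.28 (adjusted p = 0.16). Among 9 coregulators only SIRT1 passed, and NOCT, a rhythmic phosphatase, was the other with an unadjusted p under 0.05, at -0.41 ± 0.17 (adjusted p = 0.242).

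**Figure D4:**
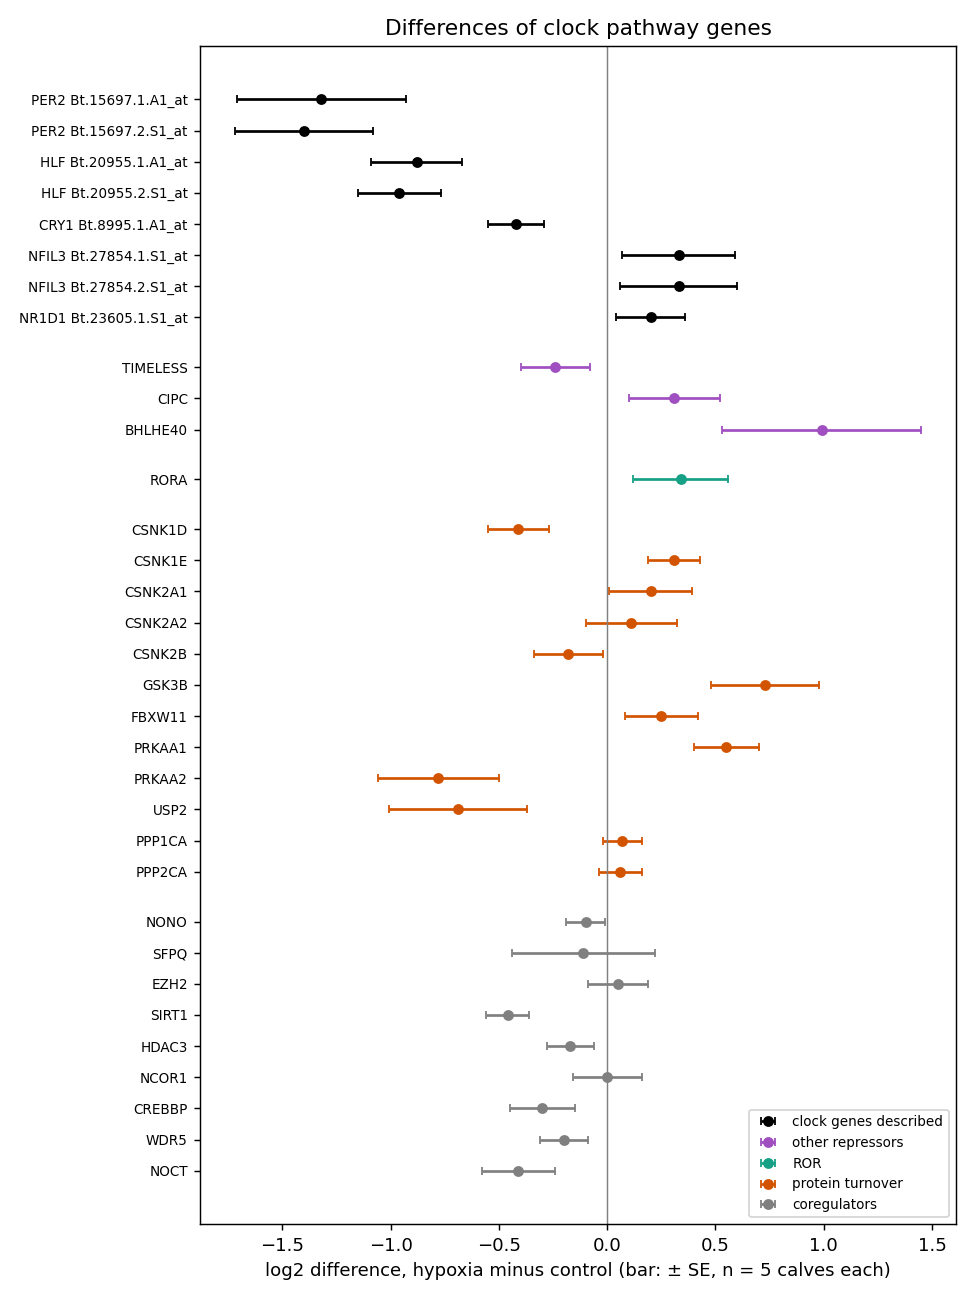
Log2 difference, hypoxia minus control ± SE (horizontal axis, n = 5 calves each), for the 8 probe sets of the 5 clock genes in black and, by brightest probe set, 25 other genes of the clock in colour by role. PER2 has the most negative differences, at -1.32 and -1.40, and SIRT1, at -0.46, is the only coloured gene that passed.

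Outputs of the clock and families related to the 5 genes gave 1 call. Of 46 genes in these lists, 0 rose and 1, THRA, fell by the brightest probe set (limma). At an unadjusted p under 0.05 there were 12, 4 higher and 8 lower, and the median difference was 0.00. Over all named genes 3.66% passed and 22.4% had an unadjusted p under 0.05, so no response of these lists is read from the counts. The genes of the next sentences are all 12 at that unadjusted threshold, with CEBPD in 2 lists. Beside THRA, 4 of the 18 outputs were among them. CDKN1A, an inhibitor of the cell cycle, differed by 0.75 ± 0.29 (adjusted p = 0.205), and KCNIP2, a potassium channel subunit with a daily rhythm in mouse heart, by -0.58 ± 0.21 (adjusted p = 0.176). The dimmer KCNIP2 probe set differed by -0.13 ± 0.10. TSPAN4 differed by -0.55 ± 0.15 (adjusted p = 0.0711) and RBM3, a cold-induced RNA-binding protein, by -0.42 ± 0.16 (adjusted p = 0.196). Of 10 genes that respond to glucocorticoids, hormones that also drive PER2, 0 passed and 3 had an unadjusted p under 0.05. In that list MT2A, a metallothionein, had the largest difference, 2.42 ± 0.79 (adjusted p = 0.132), while ZBTB16 differed by -1.11 ± 0.33 (adjusted p = 0.0967) and CEBPD by -0.60 ± 0.23 (adjusted p = 0.198). Of 7 relatives of CLOCK with the bHLH-PAS fold or their coactivators, 0 passed and 2 had an unadjusted p under 0.05, HIF1A with 0.57 ± 0.19 (adjusted p = 0.142) and ARNT2 with -0.61 ± 0.21 (adjusted p = 0.153). Of 13 bZIP relatives of HLF and NFIL3, 0 passed by the brightest probe set and 3 had an unadjusted p under 0.05, CEBPB, CEBPD and ATF2. ATF2, read by a dim probe set with a mean level of 4.43, differed by 0.39 ± 0.15 (adjusted p = 0.211). CEBPB differed by -0.85 ± 0.21 on its brighter probe set (adjusted p = 0.0567) and fell by 0.80 ± 0.17 on the other (adjusted p = 0.0337). The genes of these lists and of the turnover and coregulator lists that did not pass were named after their values were seen, as all those with an unadjusted p under 0.05.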

How the data were processed

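Total RNA of the right ventricle of 10 calves was hybridised to Affymetrix Bovine arrays, 1 per calf. The deposited values were log2 expression per probe set, made by the authors with RMA, per the submitters' processing notes. The software, version and probe set definitions are not given in the sources used here. Since RMA gives arrays like distributions, a shift of all transcripts would not be seen. Of 24128 probe sets, 112 Affymetrix controls were left out. Symbols came from the platform annotation: 13292 probe sets had 1 symbol, 86 had several and 10638 had none, and the last 2 kinds were tested but not named. Groups came from the titles.

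Differences, hypoxia minus control, came from lmFit and eBayes, with no variance trend, of limma 3.58.1 (R 4.3.3), with Benjamini-Hochberg adjustment over 24016 probe sets and a threshold of 0.05. The brightest probe set over all calves stood for its gene. Correlations were tested by exact permutation within groups (14400 arrangements), with adjustment over 10 pairs. Pairs with BMAL1 were planned but not analysed here. Both tests were tested on simulated data. Precision is limited by the number of arrays.

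The 5 genes and the gene lists were chosen with earlier results of these data known. By rule, the text names every measured gene closest to the loop, passing genes of the other lists (at most 4 a list), THRA, and the 3 genes most like each of the 5. Beside the rule, and after the values were seen, it names all genes of the lists with an unadjusted p under 0.05, and PDGFRA. Alternatives covered scaling, leaving out dim probe sets, the variance model, weights for arrays, the run of calf numbers as a block, the probe set per gene, the threshold and leaving out calves. Leaving out calves for the spread within groups was added after seeing the data.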

Additional observations from a re-analysis of the deposited data

Results flagged for a closer look

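In 3 of 28 groups checked, 1 calf lay far from the other 4 by Dixon's test, where chance flags about 1 group in 20. None of the 3 was in a probe set of PER2, HLF, CRY1, NFIL3 or NR1D1. BHLHE40 was 10.10 in hypoxia calf 199, against 8.16 to 8.68 in the other hypoxia calves. SIRT1 was 7.82 in hypoxia calf 178, against 8.06 to 8.13 in the others. THRA was 11.86 in control calf 195, against 11.41 to 11.53 in the other control calves.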

How the results depend on the processing

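The differences of the 8 clock probe sets kept their sign under every alternative run and moved by less than 1 SD. The dimmer or only probe sets ranged over -1.57 to -1.11 for PER2, -1.07 to -0.69 for HLF, -0.48 to -0.28 for CRY1, 0.08 to 0.50 for NFIL3 and 0.11 to 0.33 for NR1D1. With the run of calf numbers as a block, NFIL3 differed by 0.12 and 0.08 on its probe sets and NR1D1 by 0.12. The count of other clock genes that passed was 1, and it was 0 with the trend and robust variance model, with the block for calf numbers, without hypoxia calves 178 and 199 together and with a gene's probe sets averaged. It was 2 at a threshold of 0.1 and 0 to 1 with each calf left out. Without hypoxia calf 173 the gene that passed was GSK3B, and without control calf 176 it was SIRT1. The count in the related lists was 1, and it was 2 with median centring, quantile normalization, the filter on dim probe sets, array weights and a gene's probe sets averaged. It was 0 without hypoxia calves 178 and 199 and 0 to 4 with each calf left out, with 4 without control calf 176 and 0 without control calf 181. THRA passed in all alternatives but those without control calf 181 (adjusted p = 0.0564) and without hypoxia calves 178 and 199 (adjusted p = 0.0961). Over all probe sets 652 passed, 217 with the block, 155 without both calves, and 241 to 605 with each calf left out. The count of passing pairs was 0 in both alternatives. The cause of these changes was not tested. No paired analysis was possible because the groups share no calf numbers.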
